A study of Mus musculus with 18 samples.

Results

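Nup93 and the 6 nucleoporins that surround it in the inner ring and central channel of the nuclear pore were followed through 18 mouse RNA-seq libraries. The members were named one by one: Nup93, Nup188, Nup205, Nup155, Nup35, Nup54 and Nup62, which are 7 of the 24602 gene rows in the deposited table of counts. The libraries formed 6 groups of 3, made of 2 RNA fractions (nuclear RNA and total RNA) by 3 genotypes of Nup93. The genotypes were Nup93 wild type (WT), Nup93 R388W/+ (Het) and Nup93 R388W/R388W (Hom), in knock-in mice that the series title assigns to strain 129S1/SvlmJ. No group carried another allele or a treatment that the labels name, and the labels used here give neither age nor sex. The series text speaks of podocytes, which wrap the capillaries of the kidney filter, whereas the sample labels say mouse tissue. The labels do not tie the 3 libraries of any group to different animals, so a p-value here measures a spread that may be only technical.

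The nuclear pore is a ring-shaped channel through the nuclear envelope, built from many copies of several kinds of protein called nucleoporins. Nup93 is the scaffold nucleoporin that ties the inner ring together: it binds the large scaffold proteins Nup188 and Nup205, meets Nup155 and Nup35 close to the membrane, and anchors the channel nucleoporins Nup62, Nup54 and Nup58. The channel proteins carry phenylalanine-glycine repeats that fill the pore and let transport receptors pass. Variants of human NUP93, NUP205 and other pore genes are a known cause of steroid-resistant nephrotic syndrome, a disease of the podocyte.

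The place of the allele in the Nup93 transcript is shown because all groups are defined by it. In the GENCODE M21 (GRCm38) transcript Nup93-207, which is 2928 bases long, as is the deposited gene length of Nup93, codon 388 of 819 counted from the start codon lies in exon 12 of 23 and reads AGA, an arginine codon. The run below is reference coding sequence, 5′ to 3′, with codon 388 in capitals. None of the counts tells which allele a read came from.
Nup93 codon 388: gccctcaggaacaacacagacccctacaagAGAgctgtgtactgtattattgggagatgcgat

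Promoter sequence is shown for Nup93, Nup54 and Nup62, the members with the clearest differences among the 6 of 7 members matched in the RefSeq table (build GRCm38.p6). Nup35 was not matched. Each run is the 250 bases upstream of a transcript start, 5′ to 3′ along the gene. Capitals mark 4 motifs searched on both strands. They are the CCAAT box, the GC box GGGCGG, the ETS factor core CCGGAAG and the E-box CACGTG.
Nup93 (chr8:94214314-94214563, plus strand): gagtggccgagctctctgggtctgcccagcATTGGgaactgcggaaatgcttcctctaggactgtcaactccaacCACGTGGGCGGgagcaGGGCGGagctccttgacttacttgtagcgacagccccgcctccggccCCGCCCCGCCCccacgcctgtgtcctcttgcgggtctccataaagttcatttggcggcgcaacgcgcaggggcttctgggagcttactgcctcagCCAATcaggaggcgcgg
Nup54 (chr5:92435200-92435449, minus strand): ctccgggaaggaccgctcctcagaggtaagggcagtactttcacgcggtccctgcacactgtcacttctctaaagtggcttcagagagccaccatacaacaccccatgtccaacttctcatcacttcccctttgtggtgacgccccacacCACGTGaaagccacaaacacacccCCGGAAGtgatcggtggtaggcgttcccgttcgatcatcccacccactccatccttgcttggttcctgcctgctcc
Nup62 (chr7:44815838-44816087, plus strand): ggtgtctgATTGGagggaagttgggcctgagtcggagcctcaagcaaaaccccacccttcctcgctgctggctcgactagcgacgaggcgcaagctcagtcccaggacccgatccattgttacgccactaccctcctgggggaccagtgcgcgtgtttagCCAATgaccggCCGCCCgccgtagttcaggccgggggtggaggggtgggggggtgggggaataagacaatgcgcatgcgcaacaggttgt
In the Nup93 window CCAAT matched at 2 places, GGGCGG at 4 and CACGTG at 1, and some of these matches share bases with each other. The Nup54 window held 1 CCGGAAG and 1 CACGTG, and the Nup62 window 2 CCAAT and 1 GGGCGG, so no motif was present in all 3. Of 32851 RefSeq windows of this length, CCAAT was found in 33.8%, GGGCGG in 32.7%, CCGGAAG in 6.91% and CACGTG in 6.02%. A second Nup93 start in the same table held 1 CCAAT and none of the other motifs. A match is a description of letters, not of a bound site.

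Depth was 17405493 to 23462056 counts per library, and the 7 members had between 124 and 708 counts in every library, so all 7 passed the filter on low counts. The column of Total_WT replicate 1 summed to 200140709 and held, for every gene, at least as many counts as the 9 nuclear columns added up, so their sum was subtracted and 19034520 counts were used. Levels are CPM, counts relative to library size after TMM scaling, whose factors line up the bulk of the genes between libraries. Total_Hom replicate 2 stood apart by its share of Rn45s, the ribosomal RNA precursor, which took 7.12% of its counts against 0.11% to 1.02% elsewhere. Xist, the RNA of the inactive X chromosome, was at 334 to 545 CPM in Nuclear_Het, Nuclear_Hom and Total_WT and at 0.341 to 1.67 CPM in Nuclear_WT, Total_Het and Total_Hom, and 4 Y-linked genes showed the reverse. Nuclear and total libraries of the same labelled genotype thus differed in Xist status, as libraries of female and male animals do. Whether the 2 fractions came from different animals or some labels are wrong was not tested, and genotypes and fractions below are those of the labels. Within a fraction, Hom and Het have the same Xist status, while either of them and WT differ in it. Averaged over both fractions, the comparison with WT is balanced, because the difference in Xist status has opposite signs in nuclear and total RNA. The 14 podocyte markers, none of them at 0, took 0.0633% to 0.0736% of the counts as group means, and 16 proximal tubule markers took 3.83% to 6.25%. In bulk RNA, fewer cells of a type and less RNA per cell cannot be told apart.

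Per kilobase of gene length, Nup54 of the channel was the most abundant of the 7 transcripts in all 6 groups, from 9.72 ± 0.266 CPM per kilobase (SD, n = 3) in Total_Hom to 12.2 ± 0.618 in Total_Het. Nup93 came next in 5 groups, with 6.56 to 7.71 CPM per kilobase. In Nuclear_WT it ranked behind Nup62, with 5.42 ± 0.278 against 6.73 ± 0.275. Nup188 and Nup205, the alternative large partners of Nup93, had near-equal levels of 4.38 to 5.03 and 4.28 to 4.82 CPM per kilobase and changed places between groups. Nup35 and Nup155 were the lowest, with 2.33 to 3.47 and 3.12 to 3.44 CPM per kilobase. The summed CPM of the 7 members, not per length, ranged only from 144 ± 5.53 in Total_Hom to 164 ± 1.99 in Nuclear_Het.

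**Figure D1:**
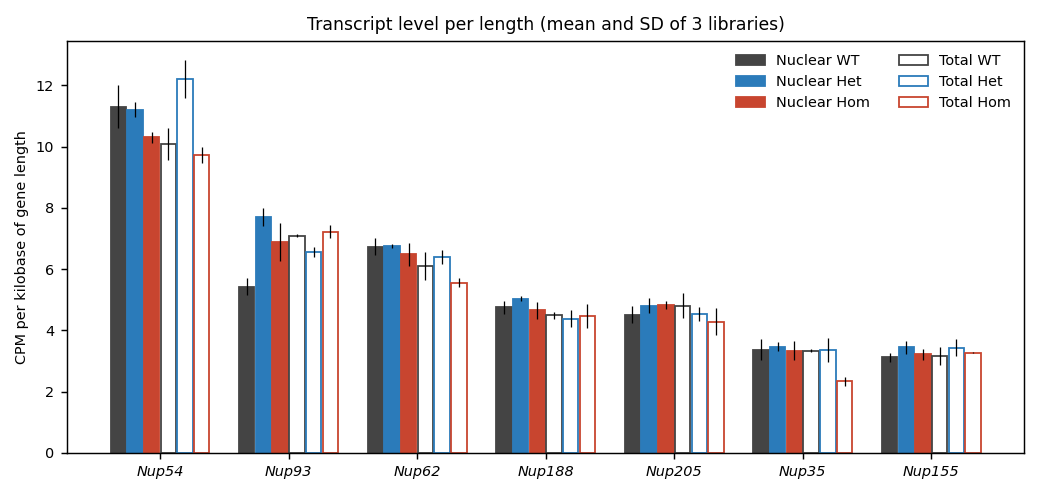
Level of each transcript in CPM per kilobase of deposited gene length (y axis) for the 7 genes (x axis), with bars for the mean of 3 libraries in each of the 6 groups and lines for the SD. Nup54 is highest in all groups, between 9.72 and 12.2, and Nup35 is lowest in Total_Hom at 2.33.

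Nup93, the gene that carries the allele, was lowest in nuclear RNA of WT and highest in nuclear RNA of Het. The 3 Nuclear_WT libraries read 16.5, 15 and 16.1 CPM, the Nuclear_Het libraries 22.4, 21.8 and 23.5, and the Nuclear_Hom libraries 19.5, 22.2 and 18.7. Total RNA read 20.9, 20.8 and 20.6 CPM in WT, 18.9, 19.1 and 19.7 in Het and 21.5, 21.5 and 20.4 in Hom. No other library was as low as those of Nuclear_WT, and the spread of Nuclear_Hom reached into 4 of the other groups. From low to high, the group order was Nuclear_WT, Total_Het, Nuclear_Hom, Total_WT, Total_Hom and Nuclear_Het. Only the first and the last step of that order were between groups whose libraries did not overlap.

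Within nuclear RNA, Nup93 exceeded its WT level in Het by a log2 difference of 0.51 ± 0.07 (SE, edgeR adjusted p = 1.53e-09) and in Hom by 0.35 ± 0.07 (edgeR adjusted p = 2.43e-05). These contrasts also set high against low Xist, which cannot be told apart from genotype within 1 fraction. Averaged over both fractions, where Xist status is balanced, Nup93 rose by log2 0.19 ± 0.05 in Hom (1.14-fold, edgeR adjusted p = 0.000467) and by 0.20 ± 0.05 in Het (1.15-fold, edgeR adjusted p = 0.000472). Both rises passed in each of the 20 alternative settings, with values of 0.15 to 0.24 in Hom and 0.18 to 0.22 in Het. The mean joins unlike fractions, since in total RNA alone the differences from WT were 0.03 ± 0.07 in Hom and -0.11 ± 0.07 in Het and did not pass. The balance holds only if the difference that goes with Xist status is equal in the 2 fractions, which was not tested.

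Hom and Het share Xist status, and between them Nup93 differed in opposite ways in the 2 fractions. In nuclear RNA it was lower in Hom (log2 -0.16 ± 0.07, edgeR adjusted p = 0.0470), a call that 7 of 15 alternative settings ended. These were DESeq2, RLE scaling, no filter on low counts, and leaving out Nuclear_Het replicate 1 or 3 or Nuclear_Hom replicate 1 or 3, at values of -0.17 to -0.12. In total RNA it read log2 0.14 ± 0.07 in Hom against Het (95% interval 0.00 to 0.28, edgeR adjusted p = 0.0660), and it passed with library totals alone (0.30), without Total_Hom replicate 3 (0.17) and when only genes averaging 5 CPM or more were tested (0.18). The nuclear-to-total ratio differed between Hom and Het by log2 -0.30 ± 0.10 (edgeR adjusted p = 0.00425), and by -0.51 to -0.26 over the alternatives. The summed share of immune cell markers was also highest in Nuclear_Het. Among these markers Csf1r was not highest there, with 94.3 CPM against 120 in Total_WT, 106 in Total_Het and 49.8 in Total_Hom. The others each had their highest group mean in Nuclear_Het. The 10 listed genes, none at 0 in any group, took 0.189% to 0.196% of the counts there, against 0.0676% to 0.0699% for nuclear WT and 0.0632% to 0.0651% for nuclear Hom. In total RNA they took 0.0968% to 0.1% for WT, 0.112% to 0.113% for Het and 0.116% to 0.125% for Hom. The immune share is a sum in which Cd74 and H2-Ab1 had the highest levels in nuclear WT and nuclear Hom. These 2 genes were lower in Nuclear_Hom than in Nuclear_WT (Cd74 276 against 379 CPM, H2-Ab1 128 against 194). Each of the other listed immune markers was higher in Nuclear_Hom than in Nuclear_WT, such as Lyz2 (81.4 against 36.7 CPM) and Csf1r (91.8 against 90). The part of the immune markers in the Nup93 difference was not tested.

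**Figure D2:**
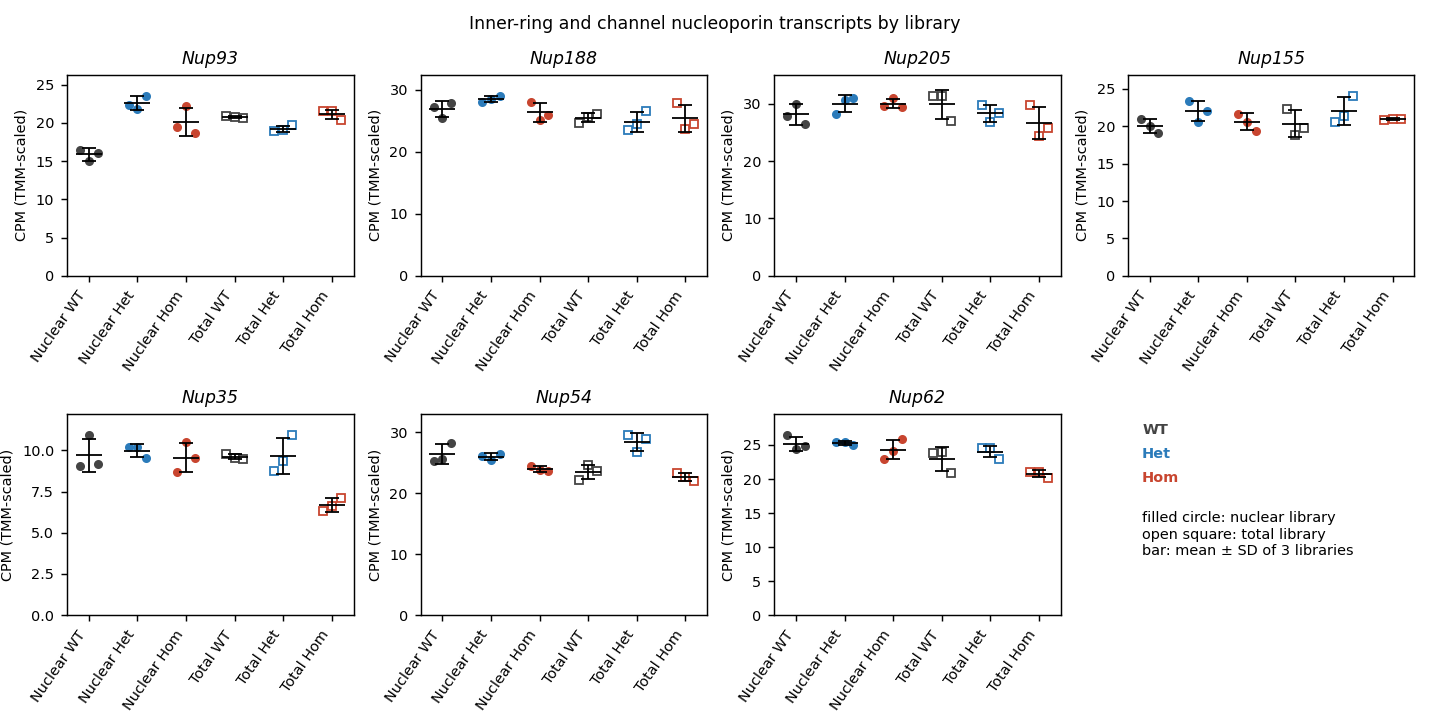
CPM after TMM scaling (y axis, from 0) of each of the 7 genes in every library, by group (x axis); circles are nuclear and squares total libraries, and bars are the mean and SD of 3. The Nup93 libraries of Nuclear_WT sit at 15 to 16.5 CPM, below all others, and the Nup35 libraries of Total_Hom at 6.29 to 7.13 CPM, below all others.

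Nup35 showed the largest genotype difference of the inner-ring partners, and it passed in total but not in nuclear RNA. Nup35 is a small membrane-binding nucleoporin of the inner ring. The Total_Hom libraries read 6.29, 6.64 and 7.13 CPM, against 8.74, 9.33 and 10.9 in Total_Het and 9.78, 9.53 and 9.50 in Total_WT. In nuclear RNA the libraries read 9.02, 10.9 and 9.17 CPM in WT, 10.2, 10.2 and 9.52 in Het and 8.66, 10.5 and 9.56 in Hom. All 3 Total_Hom libraries lay below each of the other 15, and the neighbours in the order of the other 5 groups overlapped. Nup35 fell by log2 0.52 ± 0.11 in total Hom against Het (1.43-fold lower, edgeR adjusted p = 1.04e-05) and had the same difference from total WT (log2 -0.52 ± 0.11, edgeR adjusted p = 8.50e-06). Each call held in all 16 alternatives, with -0.59 to -0.37 against Het and -0.56 to -0.47 against WT, and without Total_Hom replicate 2 both were -0.51. The mean of both fractions was lower for Nup35 in Hom than in WT (log2 -0.27 ± 0.07, edgeR adjusted p = 0.000778) and than in Het (log2 -0.29 ± 0.07, edgeR adjusted p = 0.000292), in all 20 alternatives. In nuclear RNA the Hom to Het difference was -0.06 ± 0.09 (95% interval -0.25 to 0.13). The difference between the fractions itself passed, with a nuclear-to-total ratio higher in Hom than in Het by log2 0.46 ± 0.15 (edgeR adjusted p = 0.00358), a call lost with library totals alone (0.25). Proximal tubule markers, 16 of 16 measured, took 3.60% to 3.97% of the counts in Total_Hom and 6.21% to 6.30% in Total_Het, but 4.10% to 4.15% in Total_WT. Endothelial markers, 10 of 10 measured, took 0.123% to 0.135%, 0.0812% to 0.0822% and 0.114% to 0.116% in the same order. Of these, Kdr was lower in Total_Hom (88.8 CPM) than in Total_Het (92) and Total_WT (108). The other endothelial markers were higher in Total_Hom than in Total_Het, but Eng was lower there (189 CPM) than in Total_WT (220). The tubule share is a sum in which Kap (23000 CPM in Total_Het, 1830 in Total_Hom) and Acsm2 (7070 and 1560) had the widest gaps. Its markers Gpx3, Aqp1 and Slc5a12 were higher in Total_Hom than in Total_Het. None of the tubule and endothelial markers was at 0, and their part in the Nup35 difference was not tested.

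Nup188, Nup205 and Nup155, the large scaffold proteins of the inner ring, varied little. Nup188 ran from 23.5 to 29.0 CPM over the 18 libraries, Nup205 from 24.4 to 31.3 and Nup155 from 18.8 to 24.0. For Nup205 and Nup155 all neighbours in the order of group means overlapped, and for Nup188 only Nuclear_Het (28.0 to 29.0 CPM) lay clear of the group next to it. Nup188 passed in none of the 9 genotype contrasts within or averaged over the fractions, and its 95% interval for the averaged Hom to WT difference was -0.10 to 0.07 on the log2 scale. With library totals alone it passed in 4 of these contrasts: nuclear Het against WT (0.26), nuclear Hom against Het (-0.17), total Het against WT (-0.21) and total Hom against Het (0.19). It also passed in nuclear Het against WT when only genes averaging 5 CPM or more were tested (0.13), and in nuclear Hom against Het without Nuclear_Hom replicate 1 (-0.16). Nup205 was lower in total Hom than in total WT (log2 -0.16 ± 0.06, edgeR adjusted p = 0.0178). DESeq2 did not keep this call, nor did the deposited column of Total_WT replicate 1, or leaving out Total_Hom replicate 2 or 3 or Total_WT replicate 1 or 2, at values from -0.16 to -0.10. Nup155 was higher in Het than in WT averaged over both fractions (log2 0.13 ± 0.05, edgeR adjusted p = 0.0282). It was lost with DESeq2 and without any 1 of Nuclear_Het replicate 1, Nuclear_WT replicate 3, Total_Het replicate 3 and Total_WT replicates 2 and 3, at values from 0.10 to 0.12.

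The channel nucleoporins Nup54 and Nup62 were both lower in total RNA of Hom than of Het. Nup54 read 23.3, 22.6 and 22.1 CPM in Total_Hom and 29.5, 26.8 and 28.9 in Total_Het, with 22.2, 24.6 and 23.7 in Total_WT. Total_Het thus stood apart for Nup54, while Total_Hom overlapped Total_WT. The Hom to Het difference was log2 -0.32 ± 0.06 (1.25-fold lower, edgeR adjusted p = 3.79e-06) and passed in all 16 alternatives (-0.36 to -0.17). Nup54 was higher in total Het than in total WT (log2 0.27 ± 0.06, edgeR adjusted p = 7.17e-05), but not with library totals alone (0.10). With the fractions averaged it was higher in Het than in WT by log2 0.13 ± 0.04 (edgeR adjusted p = 0.0107), a call that Total_WT replicate 1 decided, since it was lost without that library (0.11) and with its deposited column (0.10). The group means of Nup54 stood beside those of the proximal tubule markers as follows. In total RNA they were 28.4 CPM with a marker share of 6.25% for Het, 23.5 with 4.13% for WT and 22.7 with 3.83% for Hom. In nuclear RNA they were 26.4 with 5.62% for WT, 26.0 with 3.94% for Het and 24.0 with 4.09% for Hom. The share is a sum, and its markers did not move together. From Total_Het to Total_Hom the widest gaps were those of Kap (23000 against 1830 CPM) and Acsm2 (7070 against 1560). Gpx3 (17100 against 19300 CPM), Aqp1 (1820 against 2610) and Slc5a12 (425 against 835) went the other way. The part of the tubule share in the Nup54 difference was not tested.

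Nup62, which forms the centre of the channel complex, read 21.1, 21.1 and 20.2 CPM in Total_Hom, 24.5, 24.5 and 23.0 in Total_Het and 23.8, 24.0 and 20.9 in Total_WT. It was lower in total Hom than in total Het (log2 -0.20 ± 0.07, edgeR adjusted p = 0.00717), a call lost with library totals alone (-0.05). In nuclear RNA the 9 libraries lay between 22.9 and 26.4 CPM and overlapped between genotypes. In the mean of both fractions, Hom was below Het for Nup54 (log2 -0.22 ± 0.04, edgeR adjusted p = 3.97e-06) and for Nup62 (log2 -0.13 ± 0.04, edgeR adjusted p = 0.00780, lost with library totals alone at -0.08). Against WT the averaged Hom values were -0.09 ± 0.04 for Nup54 and -0.10 ± 0.04 for Nup62, and neither passed (edgeR adjusted p = 0.0556 and 0.0513). Nup54 passed there in 6 of 20 alternatives: with the deposited column of Total_WT replicate 1 (-0.12), and without Nuclear_Hom replicate 1, Nuclear_WT replicate 1 or 2, Total_Hom replicate 1 or Total_WT replicate 1 (-0.11 to -0.10). Nup62 passed there in 4 of 20: with that deposited column (-0.11), and without Nuclear_Hom replicate 3 (-0.12), Nuclear_WT replicate 2 (-0.11) or Total_WT replicate 3 (-0.13). Nupl1, the deposited symbol of the channel partner Nup58, did not pass in total Hom against Het.

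The counts of members called stand beside those of all genes. In total Hom against Het 3 of 7 members passed, all lower, while 67.0% of 15051 genes passed, 34.1% lower and 32.9% higher. With library totals alone 4 of 7 passed there, Nup35 (-0.37) and Nup54 (-0.17) lower and Nup93 (0.30) and Nup188 (0.19) higher, while Nup62 (-0.05) did not. In nuclear Hom against Het 1 of 7 passed beside 43.2% of 15112 genes. In nuclear RNA 1 of 7 passed in Hom against WT and 1 in Het against WT, beside 54.3% and 64.6%. With library totals alone all 7 passed in Het against WT, where that scaling also moved the median of all genes by 0.18. The shares of all genes called under library totals alone are not given here, so these member counts describe the scaling. In total RNA 2 of 7 passed in Hom against WT and 1 in Het against WT, beside 61.6% and 61.1%. With both fractions averaged, 2 of 7 passed in Hom against WT (58.6% of 15410 genes), 3 in Het against WT (43.1%, a near-equal share) and 3 in Hom against Het (56.0%). The median log2 difference of the members was -0.08 in total Hom against Het and -0.03 in the averaged Hom to WT comparison, beside 0.01 and 0.00 for all genes tested. Scaling by library totals alone moved the median of all genes in total Hom against Het by 0.15 and the share of higher genes among those called from 49.1% to 68.4%. It moved that median by 0.12 in nuclear Hom against WT (48.8% to 73.9% higher), by 0.18 in nuclear Het against WT (50.9% to 75.9%) and by -0.18 in total Het against WT (50.5% to 24.5%). In nuclear Hom against Het the share went from 49.6% to 33.5%, in the averaged Hom to WT comparison from 47.7% to 61.6% and in averaged Hom against Het from 44.2% to 58.5%.

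**Figure D3:**
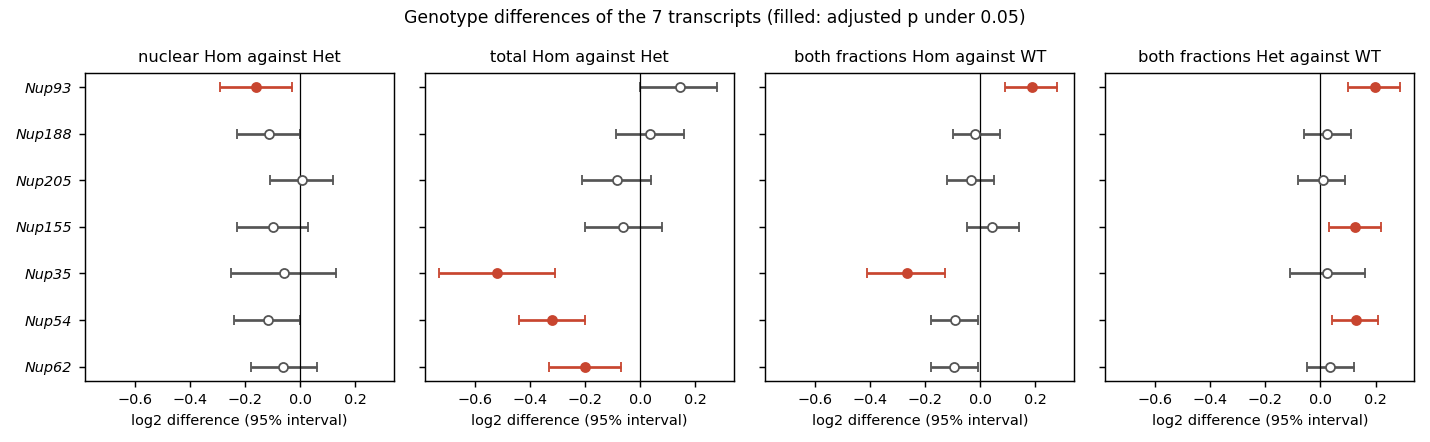
Log2 difference with its 95% interval (x axis) for the 7 genes (y axis) in 4 comparisons; filled points have an edgeR adjusted p under 0.05. Nup35, Nup54 and Nup62 lie left of 0 in total Hom against Het, and Nup93 lies right of 0 in both averaged comparisons with WT.

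Nuclear and total RNA were compared within each genotype, where Xist status differs between the fractions. The nuclear level of Nup93 lay under its total level in WT, where 3 of 7 members passed beside 61.7% of all genes (log2 -0.38 ± 0.07, edgeR adjusted p = 7.65e-07) and higher in that of Het, where 2 of 7 passed beside 63.6% (0.23 ± 0.07, edgeR adjusted p = 0.00188). In Hom 3 of 7 passed beside 60.3%, and the Nup93 value was -0.06 ± 0.07 (edgeR adjusted p = 0.407). Nup35 was higher in nuclear RNA of Hom (0.52 ± 0.10, edgeR adjusted p = 6.91e-06) but read 0.01 ± 0.10 in WT and 0.05 ± 0.10 in Het. Nup188 was higher in nuclear RNA of Het (log2 0.20, edgeR adjusted p = 0.00299), in all 14 alternatives. Nup205 was higher in nuclear RNA of Hom (log2 0.17, edgeR adjusted p = 0.00895). The Nup205 call was lost without Nuclear_Hom replicate 2 and without Total_Hom replicate 2 or 3. Nup62 was also higher in nuclear RNA of Hom (log2 0.22, edgeR adjusted p = 0.00166), in all 14 alternatives. In WT, Nup54 (log2 0.17, edgeR adjusted p = 0.0134) and Nup62 (log2 0.15, edgeR adjusted p = 0.035) were higher in nuclear RNA. Of 14 alternatives, 5 ended the Nup54 call and 5 the Nup62 call, and library totals alone reversed the Nup62 value (-0.01). Averaged over WT and Hom, which is balanced in Xist status, Nup62 (0.18 ± 0.04), Nup35 (0.26 ± 0.07) and Nup54 (0.12 ± 0.04) were higher and Nup93 (-0.22 ± 0.05) lower in nuclear RNA, 4 of 7 members beside 63.8% of all genes. The Nup54 and Nup62 calls were lost there with library totals alone (0.04 and 0.10). The nuclear-to-total ratio differed in 3 of 7 members for Hom against WT, in 2 for Het against WT and in 3 for Hom against Het, beside 56.1%, 70.7% and 63.6% of all genes.

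The rest of the pore was described through 24 other nucleoporins, all of them tested. Averaged over both fractions, 7 of 24 were lower and 2 higher in Hom than in WT, beside 30.6% and 28.0% of all genes. The 5 of smallest p were Nup50 of the nuclear basket, a cofactor of importin-mediated import (log2 -0.27 ± 0.03), the membrane nucleoporin Pom121 (-0.19 ± 0.04), Ahctf1, also called ELYS, which seeds pore assembly on chromatin (-0.13 ± 0.03), Sec13 of the outer ring (-0.11 ± 0.03) and Tpr, the main filament of the basket (-0.08 ± 0.02). Of the outer ring 2 of 10 were lower and 2 higher, of the basket 2 of 3 lower, of the membrane nucleoporins 2 of 3 lower and of the cytoplasmic side 1 of 7 lower. In total Hom against Het 8 of 24 were lower and 2 higher, beside 34.1% and 32.9% of all genes, led by Nup50 (log2 -0.62 ± 0.04), Sec13 (-0.28 ± 0.03), Tpr (-0.16 ± 0.03), Rae1, an mRNA export factor (-0.23 ± 0.05), and Gle1, an activator of the export helicase (-0.18 ± 0.04). The balance of the counts depended on the scaling. With library totals alone 3 of 24 were lower and 7 higher in the averaged Hom to WT comparison, and 2 lower and 7 higher in total Hom against Het. Among all genes called, the share of higher ones moved from 47.7% to 61.6% and from 49.1% to 68.4% in the same order. The shares of all genes called are not given here for library totals alone, so these counts describe the scaling. The named genes kept their sign under it. In the averaged comparison Nup50 (-0.22), Pom121 (-0.14) and Ahctf1 (-0.08) still passed, and Sec13 (-0.06) and Tpr (-0.03) did not. In total Hom against Het Nup50 (-0.47) and Sec13 (-0.13) still passed, and Tpr (-0.01), Rae1 (-0.08) and Gle1 (-0.03) did not.

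The transcripts whose log2(CPM + 0.5) followed that of Nup93 most closely over the 18 libraries were not nucleoporins. Among 11225 named genes of at least 5 CPM, the 5 with the highest Pearson r were C3 (0.939), the central complement component, Cst3 (0.916), the protease inhibitor cystatin C, Itgb2 (0.908), the integrin beta chain of leukocytes, Atp2a3 (0.905), a calcium pump of the endoplasmic reticulum, and Cnp (0.905), a phosphodiesterase of myelinating cells. Mean C3 levels in WT, Het and Hom were 17.8, 345 and 164 CPM in nuclear RNA and 187, 85.3 and 224 CPM in total RNA, a far wider range than that of Nup93. Itgb2 ran from 5.31 CPM in Nuclear_WT to 19.7 in Nuclear_Het. These libraries share 6 groups, so a value of r rests mainly on 6 group means, and only 1 of the 5 genes was also among the top 5 by Spearman's rho. Between Nup93 and the 6 other members r ran from -0.32 (Nup54) to 0.38 (Nup155), and the highest value between any 2 members was 0.65, for Nup35 and Nup62.

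**Figure D4:**
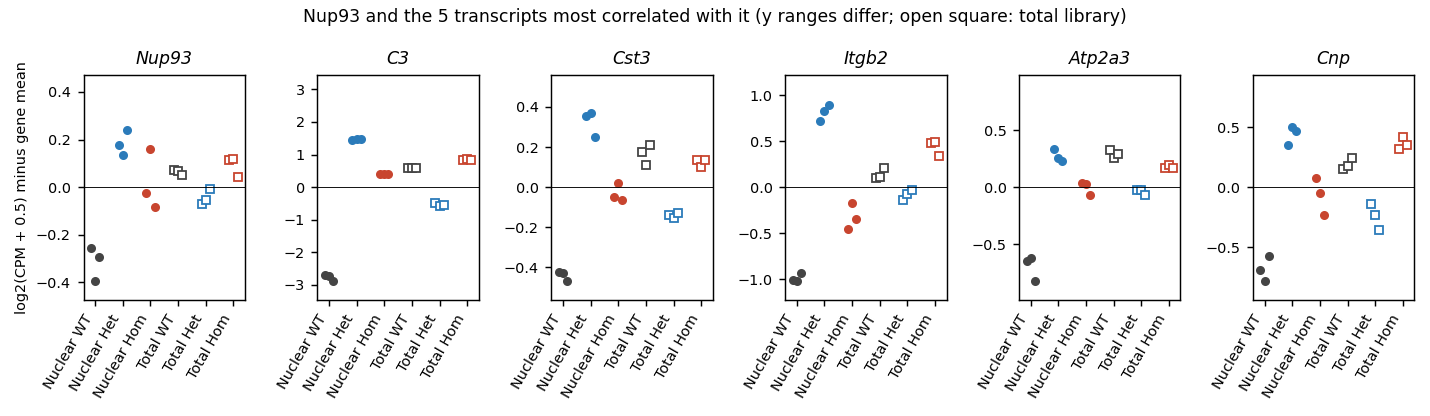
Log2(CPM + 0.5) minus the gene's own mean (y axis, with a different range in each panel) of Nup93 and the 5 transcripts most correlated with it, in every library by group (x axis). In all 6 panels Nuclear_WT is the lowest group and Nuclear_Het the highest or near it.

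The genes next to Nup93 were counted because the allele is carried on the same chromosome. In the RefSeq gene order, the 5 measured genes on each side are Bbs2, Mt4, Mt3, Mt2, Mt1, Slc12a3, Herpud1, 9330175E14Rik, Nlrc5 and Cpne2, of which 8 passed the filter on low counts. Averaged over both fractions, 5 of 8 were higher and 1 lower in Hom than in WT, beside 28.0% and 30.6% of all genes. Nlrc5, a regulator of MHC class I genes, differed by log2 0.66 ± 0.15, Slc12a3, the sodium-chloride cotransporter of the distal tubule, by 0.16 ± 0.01, Bbs2 by 0.15 ± 0.04, the metallothionein gene Mt1 by 0.12 ± 0.03 and Herpud1 by 0.05 ± 0.02. Mt3 was lower (log2 -0.64 ± 0.18). Het against WT did not show the same balance, with 3 of 8 higher and 4 lower, beside 43.1% of all genes called in either direction. The averages also join unlike fractions. In Hom against WT, Herpud1 was lower in nuclear RNA (log2 -0.76 ± 0.03) and higher in total RNA (0.86 ± 0.03). Nlrc5 differed by 1.39 ± 0.24 in nuclear RNA but read -0.06 ± 0.18 in total RNA, where it did not pass. Mt3 read 0.27 ± 0.24 in nuclear RNA, without passing, and -1.54 ± 0.26 in total RNA. Bbs2, Mt1 and Slc12a3 were higher in both fractions.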

How the data were processed

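The members and lists were chosen with earlier results of these data known. Per the labels' protocols, TRIzol served for extraction and a KAPA Stranded mRNA-Seq kit for the libraries. The tools CASAVA, STAR 2.5.2b, featureCounts, DESeq2 and the build mm9 are named, without order or settings, per the submitters' processing notes; the annotation and strand setting are not given in the sources used here. The authors deposited raw counts per gene symbol. Another column of the deposited table holds gene length, used here for levels per kilobase.

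Genes kept by filterByExpr were tested by the quasi-likelihood method of edgeR 4.0.16 (R 4.3.3, robust glmQLFit, TMM), and p-values were Benjamini-Hochberg adjusted over all genes and called under 0.05. Each fraction had its own fit of 9 libraries (15112 nuclear and 15051 total genes), and all 18 formed 1 fit (15410 genes) for averages, ratios and fraction comparisons. Errors of log2 values are SE, |log2 value| over the root of F, and 95% intervals are 1.96 SE either side. CPM are means ± SD with TMM sizes of all 18 libraries. Of the other nucleoporins the 5 of smallest p were named per comparison, and genes like Nup93 were the 5 of highest Pearson r. Reads carry no molecular identifiers, so precision from depth covers counting error only. Alternatives were RLE size factors, library totals alone, DESeq2 1.42.0, other filters, the replicate number as a block, other sets of libraries, the deposited column of Total_WT replicate 1, Rn45s removed, Spearman correlation and leaving out each library.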

Additional observations from a re-analysis of the deposited data

Results flagged for a closer look

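Among the members 8 results had a genotype difference that was not the same in nuclear and in total RNA, by a test of that difference itself (edgeR, an interaction term). For Hom against WT the nuclear difference exceeded the total one for Nup93 (log2 0.32), Nup205 (0.26) and Nup35 (0.51). For Het against WT it did so for Nup93 (0.62), and for Nup54 it was lower (-0.29). In these 5 results the 2 fractions also differed in Xist status in opposite directions, and this and the fraction cannot be told apart. For Hom against Het, which share Xist status in each fraction, the nuclear difference was lower than the total one for Nup93 (-0.30) and higher for Nup35 (0.46) and Nup54 (0.21). Beside 56.1%, 70.7% and 63.6% of all genes called in these 3 comparisons, in the order Hom against WT, Het against WT and Hom against Het, 3, 2 and 3 of the 7 members passed. The Nup54 call of 0.21 was lost in 9 of 20 alternatives. The Nup205 call was lost with the deposited column of Total_WT replicate 1 (0.22) and without Total_Hom replicate 2 (0.20). With library totals alone the Nup54 value for Het against WT (0.06) and the Nup35 value for Hom against Het (0.25) did not pass.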

How the results depend on the processing

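Of 37 called member values over the 16 comparisons, 21 kept call and direction under every alternative run, and of 75 not called 38 did. Library totals alone reversed Nup54 in nuclear Het against WT (0.16), the ratio of Het against WT (0.06) and of Hom against Het (-0.00), and Nup62 in nuclear against total in WT (-0.01) and the ratio of Het against WT (0.29). With it the number of members called became 6 in nuclear against total in Het, 2 in that of WT and Hom averaged, 7 in nuclear Het against WT, 3 in nuclear Hom against Het, 3 in nuclear Hom against WT, 6 in the ratio of Het against WT and 3 in total Het against WT. A mean of at least 5 CPM gave 1 in nuclear against total in WT, 4 in nuclear Het against WT, 2 in nuclear Hom against WT and 4 in the ratio of Het against WT. DESeq2, RLE and no filter on low counts gave 0 in nuclear Hom against Het, DESeq2 gave 1 in total Hom against WT, and all 18 libraries in 1 fit gave 2 in nuclear Hom against WT. The deposited column of Total_WT replicate 1 gave 4 in averaged Hom against WT, 1 in nuclear against total in WT and 1 in total Hom against WT. Without 1 library the number ranged from 2 to 4 in averaged Hom against WT, 1 to 2 in nuclear Het against WT, 0 to 1 in nuclear Hom against Het, 1 to 2 in nuclear Hom against WT, 1 to 2 in total Het against WT and 1 to 3 in total Hom against WT. The cause of these shifts was not tested. The share of all genes called under each setting is not given here. These counts therefore describe the settings and are no result about the members.

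Of 45 pairs of libraries with the same replicate number, 3 had deviations from their group means correlated above 0.1 (range -0.128 to 0.22). Pairs with different numbers were not examined, so whether the labels' replicate numbers pair libraries cannot be told from these values. The replicate block changed no call of a member. Depth limits what was seen, as members had 124 to 708 counts a library.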

Other observations

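Nup62cl, a paralog of Nup62 on the X chromosome that is no member here, was chosen after its values were seen. It read 2.13 to 2.37 CPM in Nuclear_Het, 2.45 to 3.34 in Nuclear_Hom and 2.67 to 3.56 in Total_WT, but 0.165 to 0.273 in Nuclear_WT, 0.284 to 0.464 in Total_Het and 0.304 to 0.607 in Total_Hom. The 3 groups with high Xist were thus the 3 with high Nup62cl, with no overlap. Nup62 itself read 20.2 to 26.4 CPM over all libraries and did not follow this split.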
